A study of Mus musculus with 2 samples.

Results

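Ultraconserved elements are stretches of genomic DNA kept without a single base change between distantly related mammals. Some lie in exons, many of them in genes for RNA-binding and splicing factors, and others lie in introns or between genes, where a number act as enhancers in the embryo. RNA copied from such elements is called a transcribed ultraconserved region, and it can come from the strand of a host gene, from the opposite strand or from a transcript of its own.

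The members described here are the 962 array probes whose target name is an ultraconserved element number followed by + or -, out of 59709 distinct probes once controls and negatives are set aside. They form 481 complete pairs, 1 + probe and 1 - probe for each element, with numbers running from 1 to 483. Numbers 11 and 32 had no probe among them. The choice used names only and no measured value. The sign names the strand of the probe target; the files do not say which reference orientation it refers to, nor which gene an element lies in, so elements are given by number.

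The study profiled long noncoding RNA and mRNA in kidney tissue of male Mus musculus on 1-colour Agilent arrays, and its design sets left against right kidney. The left group is mouse left kidney and the right group mouse right kidney, and the labels name no treatment, genotype, strain or age. As the series description was read here, RNA of 3 kidneys was pooled per side and each pool was put on 1 array, so each group is 1 sample, animals cannot be told apart and no test between sides is possible. Random priming along whole transcripts was used after removal of ribosomal RNA, so a probe can report any part of a transcript, not its 3′ end alone. Of 18 marker genes searched (kidney, adrenal, fat and blood), 0 had a probe named for them, so the labelled tissue was not checked by markers.

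Values are processed signals, meaning spot brightness after the scanner software subtracted background and evened out trends across the array. Each element probe had 1 spot per array, none saturated and none marked as an outlier, and an error written after ± is the software's estimate for that spot. The 75th percentile of all non-control spots, used to scale each array, was 436.5 (left) and 435.4 (right). The dimmest probe that the software called well above background stood at 33.2 on the left and 27.2 on the right. Different probes bind their targets with different strength, so a level is a property of probe and RNA together.

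Most ultraconserved element probes gave little signal in kidney. On the left array 292 of 962 (30.4%, exact 95% interval 27.5 to 33.4) were well above background, and on the right 342 (35.6%, 32.5 to 38.7). Over all 59701 probes with a usable spot, the background shares were 60.4% on the left and 65.5% on the right. Of the 1200 spots of the 20 negative probes, 6.5% passed in the left kidney array and 9.58% in the right one. Most of these came from MM9NEGATIVE009 (55% of its 60 spots on the left, 88.3% on the right) and MM9NEGATIVE020 (61.7% and 83.3%). No other negative passed in more than 5% of its spots. Intervals cover counting error only. The element share thus lay between that of negatives and that of all probes on each array.

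The + and - probes were detected about equally often. On the left 145 of the 481 + probes and 147 of the 481 - probes passed, and on the right 172 and 170. On both arrays together 281 probes passed, 142 of the + strand (29.5%, 25.5 to 33.8) and 139 of the - strand (28.9%, 24.9 to 33.2), against 59.2% of all probes. The interval of each strand contains the share of the other.

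The signals spanned a wide range but did not reach the brightest probes of the array. The median element probe had a signal of 9.61 (left) and 12.6 (right), below the dimmest call above background. The brightest reached 39129 and 41606, against 253371 (left) and 229528 (right) for the brightest of all other probes. Above the array's 75th percentile lay 60 element probes on the left (6.24%, 4.79 to 7.96) and 55 on the right (5.72%, 4.34 to 7.38), against 24.7% of all probes on each array. A signal of 1000 or more was reached by 42 element probes on each array (4.37%), against 18.1% (left) and 17.8% (right) of all other probes. Signals of 10000 or more were reached by 10 on each (1.04%), against 6.13% and 5.95% of all other probes. The software put 433 element probes on the left and 352 on the right at signals not distinguishable from background even by its more lenient flag.

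**Figure D1:**
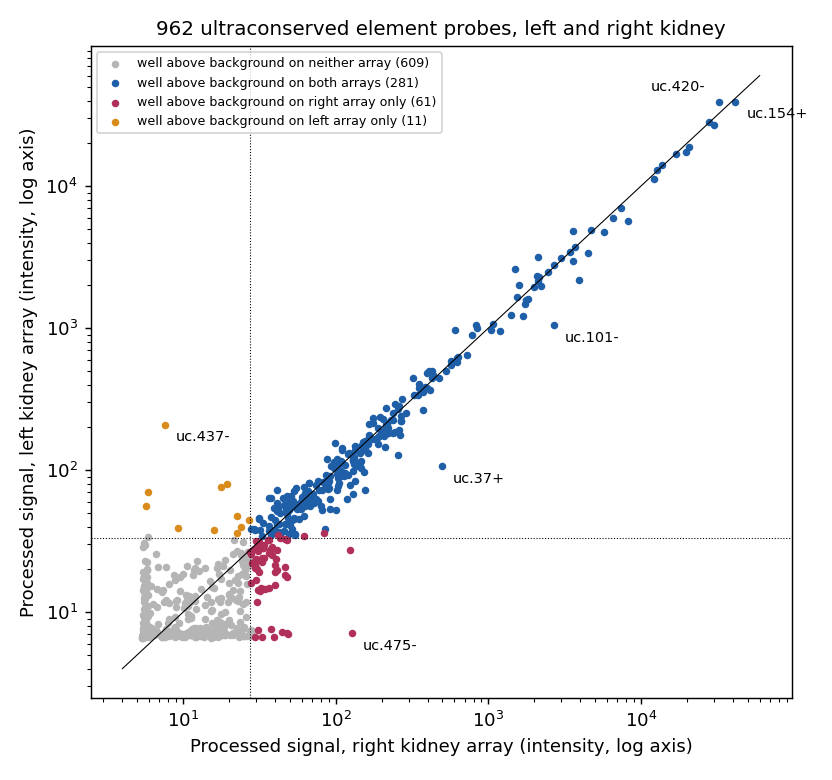
Processed signal of each of the 962 ultraconserved element probes on the left (y) and right (x) kidney array, both log axes, 1 point per probe; the solid line marks equality and dotted lines the dimmest call above background (33.2 left, 27.2 right). The 281 probes above background on both arrays follow the line from near the limit to the brightest, uc.154+, while uc.37+ and uc.101- lie toward the right kidney and uc.437- and uc.475- were above background on 1 array only.

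The 10 probes at or above 10000 stood there on both arrays. In order of mean signal they began with uc.154+, at 39129 ± 3913 on the left and 41606 ± 4161 on the right. Next was uc.420-, at 39067 ± 3907 and 32411 ± 3241, followed by uc.46- at 26727 ± 2673 and 30070 ± 3007. For each of these 3 probes the left and right values overlapped within the software error.

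Close behind was uc.141-, at 28405 (left) and 28049 (right). The + probe of uc.471 stood at 18942 and 20755, and the - probe of uc.45, the element numbered next to uc.46, at 17412 and 19618. The probe uc.188- gave 16931 and 17075. Left and right differed by at most 1.13-fold in each of these 4 probes.

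Signals above 10000 on both arrays were also seen for uc.414- (14059 left, 13731 right), uc.268- (12916 and 12705) and uc.84- (11278 and 12175). The remaining probes of the brightest 15 were uc.465- (7019 and 7450), uc.481+ (5695 and 8217), uc.418- (5930 and 6558), uc.75- (4713 and 5722) and uc.144- (4921 and 4719). Of these 15 probes 3 were + probes and 12 were - probes, and whether the strands differ was not tested. Among the 15 uc.481+ had the widest gap between sides, 1.45-fold higher on the right. Its log2 difference of -0.53 was 2.94 times the robust SD of 0.18 that all other probes of like brightness showed.

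With the well-above-background flag, more elements had signal from 1 strand than from both. With both arrays required to agree, 80 elements were above background on the + probe alone, 77 on the - probe alone, 45 on both and 208 on neither. In the other 71 a probe passed on 1 array only. Among the 202 elements with signal and a clear class, 157 (77.7%, 71.4 to 83.3) were thus above background on 1 strand. The share depended on the limit: with the more lenient flag, 121 elements passed on 1 strand and 129 on both, which is 48.4% on 1 strand. The class was the same on both arrays for 410 of 481 elements (85.2%, 81.7 to 88.3).

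Detection of the - probe was a little more frequent where the + probe was detected, and whether the shares differ was not tested. Where the + probe was above background on both arrays, the - probe was too in 45 of 142 elements (31.7%, 24.1 to 40.0). Where the + probe was above background on neither array, the - probe passed in 77 of 306 (25.2%, 20.4 to 30.4), and these intervals overlap. For comparison, the 1728 mouse lincRNA exons that also have a + and a - probe were above background on both strands in 396 cases (22.9%) and on 1 strand in 745. That is 65.3% (62.5 to 68.1) of the 1141 exons with signal and a clear class. Lower detection leaves fewer probes to pair, and its part in the higher element share was not tested. In these exons the - probe passed in 50.1% of 791 cases where the + probe was above background on both arrays. Where the + probe was above background on neither, it passed in 53.8% of 794, the other way from the elements.

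Bright signal was infrequent on each strand, and no element was bright on both. A probe above the 75th percentile on both arrays was present in 54 elements, in 19 on the + strand and in 35 on the - strand (64.8% on the - strand, 50.6 to 77.3). In 0 of these 54 did the probe of the other strand reach that percentile as well (exact interval 0 to 6.60%). Bright probes made up 3.95% of the + probes and 7.28% of the - probes, so few such elements would be counted at these shares in any case. In lincRNA exons 15 of 402 (3.73%, 2.10 to 6.08) did, and the intervals overlap. The other strand was above background on neither array in 28 of the 54 elements, on 1 array in 6 and on both in 20. The highest signal on the dimmer strand belonged to uc.456-, at 253.0 on the left and 290.4 on the right, against 1992 and 2225 for uc.456+. The median signal of the dimmer strand was 14.5 (left) and 24.0 (right), so most dimmer strands of bright elements lay below the limit for a call.

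**Figure D2:**
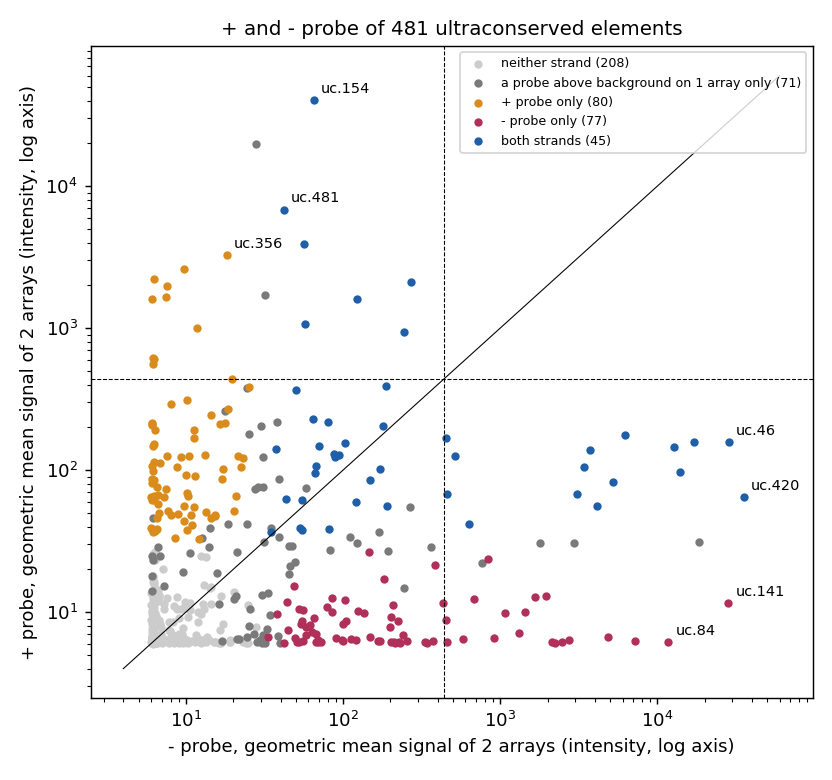
Signal of the + probe (y) against the - probe (x) of each of the 481 elements, as geometric mean of the left and right arrays on log axes, coloured by the strands above background; the solid line marks equality and dashed lines the 75th percentile of all probes. Points lie along the 2 axes and 0 elements lie beyond both dashed lines. By this mean 58 probes reach a dashed line. The 54 elements called bright have a probe above the percentile on each array separately, and each is bright on 1 strand.

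In elements whose dimmer strand was not well above background on either array, the strand ratio has only a bound. It is taken against the higher of the dimmest call on that array and the dim probe's own signal, and it compares the signals of 2 different probes, not transcript numbers. The - probe of uc.141 was at least 855-fold brighter than its + probe on the left and at least 1030-fold on the right. For uc.84 the - probe was at least 339-fold and 447-fold brighter. For uc.465 the bounds were 211-fold and 274-fold, and for uc.144 they were 148-fold and 173-fold, again toward the - probe. In each of these 4 elements the + probe was not well above background on either array.

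Smaller bounds toward the - probe were found for uc.50, uc.460, uc.162 and uc.95, the last at least 64.2-fold on the left and 78.0-fold on the right. The - probe of uc.50 gave 2765 and 2691, and that of uc.95 gave 2134 and 2125. Toward the + probe, ordered by the smaller bound of both arrays, the first was uc.356, at least 89.7-fold on the left and 133-fold on the right, with + signals of 2981 and 3615. Next were uc.203 (95.4-fold and 78.0-fold), uc.267 (70.5-fold and 76.0-fold) and uc.285 (78.5-fold and 54.8-fold). The + probes of uc.129, uc.428, uc.86 and uc.427 followed, the last at least 18.6-fold on the left and 22.9-fold on the right. Over the 80 elements with the + probe alone the median bound, taking the smaller of both arrays, was 2.45-fold, and over the 77 with the - probe alone it was 4.45-fold. A bound of 10-fold or more was reached by 12 of the former and 24 of the latter, while 33 and 21 lay under 2-fold.

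Where both probes were above background, the signal ratio between the 2 probes ranged from under 2-fold to 16-fold or more. Of those 45 elements, 27 had probes at least 2-fold apart the same way on both arrays, 10 toward + and 17 toward -. Another 14 were under 2-fold on both arrays. A ratio of 16-fold or more on both arrays was found in 3 elements toward + and 11 toward -. The log2 ratio of + over - had the same sign on both arrays in 42 of the 45.

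Among these 45 elements the widest ratio toward + was that of uc.154, whose + probe gave 39129 and 41606 and whose - probe gave 63.7 and 66.8. That is 614-fold on the left and 623-fold on the right. The widest toward - among them was that of uc.420, with 39067 and 32411 on the - probe and 61.3 and 67.2 on the + probe, 638-fold and 483-fold. These elements hold the 2 brightest probes, which carry opposite signs. Outside the 45, the dimmer probes of uc.471 and uc.45 were above background on the right array alone, where uc.471 had a ratio of 633-fold toward + and uc.45 of 625-fold toward -.

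Further toward + were uc.481 (160-fold left, 167-fold right) and uc.184 (63.0-fold and 75.8-fold), then uc.174 (24.9-fold and 13.8-fold) and uc.417 (10.5-fold on the right, wider on the left). The ratios of uc.456 (7.88-fold and 7.66-fold), uc.258 (7.16-fold and 7.49-fold) and uc.341 (4.15-fold and 3.51-fold) were smaller. The dimmer probe of uc.341 stood at 251 and 237. Toward - came uc.46 (174-fold and 184-fold), uc.414 (150-fold and 135-fold), uc.188 (105-fold and 109-fold) and uc.268 (98.6-fold and 78.1-fold). They were followed by uc.371 (87.5-fold and 63.0-fold), uc.75 (56.8-fold and 69.1-fold) and uc.472 (52.1-fold and 38.9-fold). Among these named elements the log2 ratio differed most between arrays in uc.174, by 0.85, and next in uc.417, by 0.61.

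Strand ratios measured on the left array were close to those on the right. Across the 45 elements Pearson's r was 0.990 and Spearman's rho 0.966, a description over elements whose probes share 2 arrays. The change in log2 ratio between arrays had an SD of 0.57 and a robust SD of 0.41. In 1 element, uc.37, the ratio changed by more than 1. Its log2 ratio was 0.50 (left) and 3.17 (right).

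**Figure D3:**
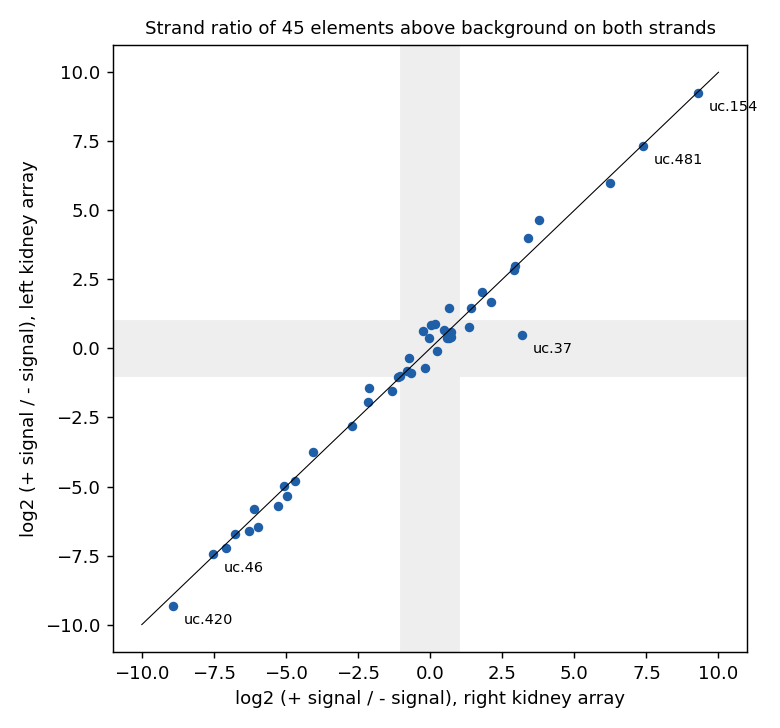
Log2 ratio of + over - signal on the left (y) and right (x) kidney array for the 45 elements with both probes above background on both arrays; 1 point per element, the line marks equality and grey bands ratios under 2-fold. Ratios run from about -9 (uc.420) to 9 (uc.154) and lie along the line, with uc.37 as the widest departure.

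Bright probes of consecutively numbered elements did not always share a sign. Coordinates were not used here, so consecutive numbers are not shown to be genomic neighbours. Nor are equal signs of different elements shown to be the same genomic strand, since the reference orientation is not given. Among the 54 bright elements 11 consecutive pairs occurred, 4 with the same sign on the bright probes and 7 with opposite signs. The sign was the same in uc.45- and uc.46-, in uc.418- with uc.419- and uc.420-, and in uc.427+ and uc.428+. The signs were opposite in uc.183- and uc.184+, uc.184+ and uc.185-, uc.267+ and uc.268-, uc.340- and uc.341+, uc.417+ and uc.418-, uc.455- and uc.456+, and uc.471+ and uc.472-.

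Over all 478 consecutive pairs, detection of an element went with a slightly higher share of detection of the next. The next + probe was above background on both arrays in 33.1% of 142 cases where the first was, and in 28.0% of 336 where it was not. For - probes the shares were 35.0% of 137 and 26.4% of 341. After a bright + probe the next + probe was bright in 5.26% of 19 cases, against 3.92% of 459 after one not bright. For bright - probes the shares were 8.82% of 34 and 7.21% of 444. Whether these shares differ beyond counting error was not tested. The + and - spots of an element lay a median of 110 rows apart on a grid of 384 rows, and 0 elements had them in adjacent spots.

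**Figure D4:**
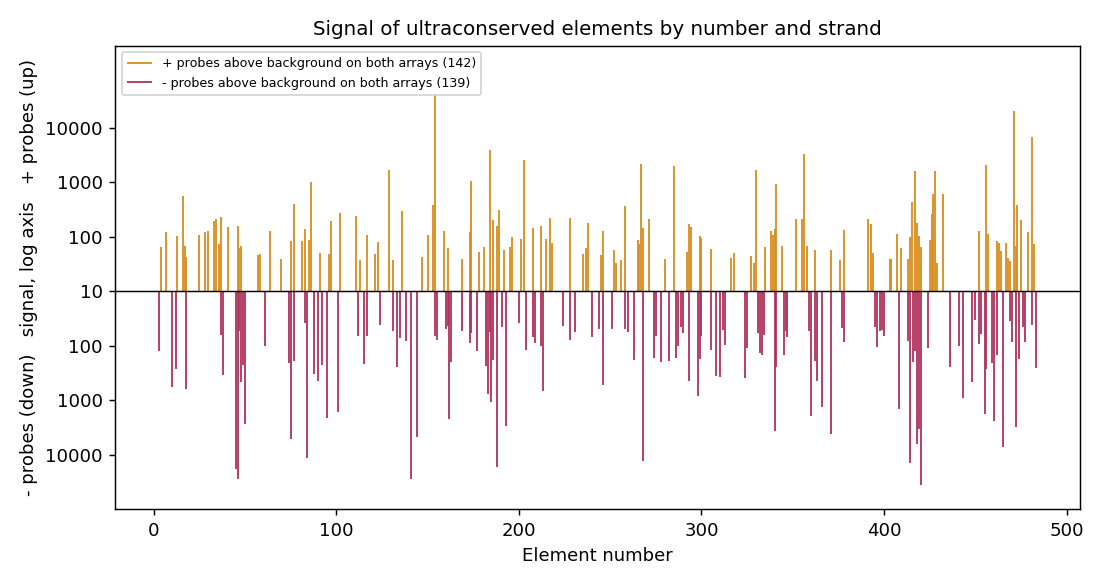
Geometric mean signal of both arrays (log axis) of the probes above background on both, by element number, with the 142 + probes drawn upward and the 139 - probes downward from a signal of 10. Lines are tall on 1 side, as at uc.154 upward and at uc.45, uc.46, uc.141 and uc.420 downward. Shorter lines face those of uc.154, uc.46 and uc.420 on the other side, while uc.45 and uc.141 stand alone.

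Left and right kidneys gave similar element signals across a wide range of brightness. Over the 281 probes above background on both arrays, Pearson's r of log2 signals was 0.988 and Spearman's rho 0.964. Over all 35367 such probes they were 0.994 and 0.988. Within narrower ranges Pearson's r was lower. For the 88 element probes with a mean log2 signal of -2 to 0 it was 0.795, against 0.859 for other probes. For the 135 under -2 it was 0.759, against 0.714. These describe probes on 2 arrays and are not replicates. In pooled tissue, fewer cells of a type and less RNA per cell cannot be told apart, and side cannot be told apart from array. Per the file headers both arrays came from the same scan and were scored by 1 software version.

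Differences between sides were mostly small. Of the 281 probes 178 (63.3%) lay within 1.2-fold, against 73.3% of all 35367 probes above background on both arrays. Among the 58 element probes with a mean at or above the 75th percentile the share was 70.7%, against 82.3% of other probes so bright. Among the 88 with a mean log2 signal of -2 to 0 it was 68.2% against 75.6%, and among the 135 with a mean log2 signal under -2 it was 57.0% against 58.5%. The log2 difference had a robust SD of 0.25 for elements and 0.21 for all probes. Whether the shares differ between element probes and others was not tested.

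A 2-fold difference either way was found for 5 of 281 probes, beside 1.08% of all probes. In these 5 the right was higher (0.543% of all probes), and in 0 the left (0.537% of all probes). At 1.5-fold the counts were 16 on the right (2.64% of all probes) and 6 on the left (2.47% of all probes). With normexp background correction, which adds an offset to all signals, the 2-fold count on the right was 2, and with only probes at least 4 times the dimmest call it was 1. The median log2 difference of the 281 was -0.06, with 165 probes higher on the right and 116 on the left (52.5% of all probes were higher on the left), against a median of 0.01 over all probes. Under median scaling the element median was -0.010 and that of all probes 0.06.

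The widest difference was that of uc.37+, which stood at 106 ± 12.5 on the left and 496 ± 49.9 on the right. That is 4.68-fold higher on the right (log2 difference -2.23), 11.2 times the robust SD of 0.20 of other probes at that brightness. The 18 nearest tested probes on the array had a median difference of -0.20, and with it subtracted uc.37+ stood at -2.03. With normexp it stood at -1.54. The stricter limit of at least 4 times the dimmest call left uc.37+ out, because its left signal fell short. The 1 probe past 2-fold kept under that limit was uc.101-. The - probe of the element stood at 75.2 on the left and 55.1 on the right, 1.36-fold higher on the left.

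The widest difference among bright probes was that of uc.101-, at 1044 ± 105 on the left and 2690 ± 269 on the right, 2.58-fold higher on the right. Its log2 difference of -1.37 was 6.69 times the robust SD of 0.20, and -1.14 with the median of the 18 nearest probes subtracted. The + probe of uc.101 had no call above background on either array.

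The other 3 probes past 2-fold were dim on at least 1 side, as uc.37+ was on the left (106). The probe uc.174- stood at 38.3 ± 8.04 on the left and 85.6 ± 10.3 on the right (2.24-fold), near the limit for a call on the left. The probe uc.25+ stood at 72.1 and 156 (2.16-fold), and uc.186- at 127 ± 14.4 and 254 ± 26.0 (2.01-fold). Under normexp these 3 had log2 differences of -0.49, -0.67 and -0.67 and were no longer 2-fold apart. For uc.25+ the 18 nearest probes had a median of -0.27, and with it subtracted the difference was -0.84.

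Short of 2-fold, the 5 widest differences toward the right were those of uc.135- (-0.94), uc.265+ (-0.93), uc.452- (-0.92), uc.193- (-0.84) and uc.208- (-0.79). The bright one among them was uc.193-, at 2189 ± 219 on the left and 3920 ± 392 on the right, 4.60 times the robust SD at its brightness. The 5 widest toward the left were uc.398- (0.81), uc.96+ (0.80), uc.285+ (0.80), uc.394+ (0.76) and uc.183- (0.67). The bright ones were uc.285+, at 2609 ± 261 on the left and 1493 ± 149 on the right (4.40 robust SDs), and uc.183-, at 968 ± 97.1 and 607 ± 61.0 (3.52 robust SDs). With the 18 nearest probes subtracted uc.183- stood at 0.44 and uc.285+ at 0.82.

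Measured against like brightness instead of a fixed fold, 12 of 281 element probes (4.27%) were at least 3 robust SDs apart, 9 higher on the right and 3 on the left, beside 3.21% of all probes. At 5 robust SDs there were 2, uc.37+ and uc.101-, which is 0.712% beside 0.718% of all probes. Both shares are near the background.

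**Figure D5:**
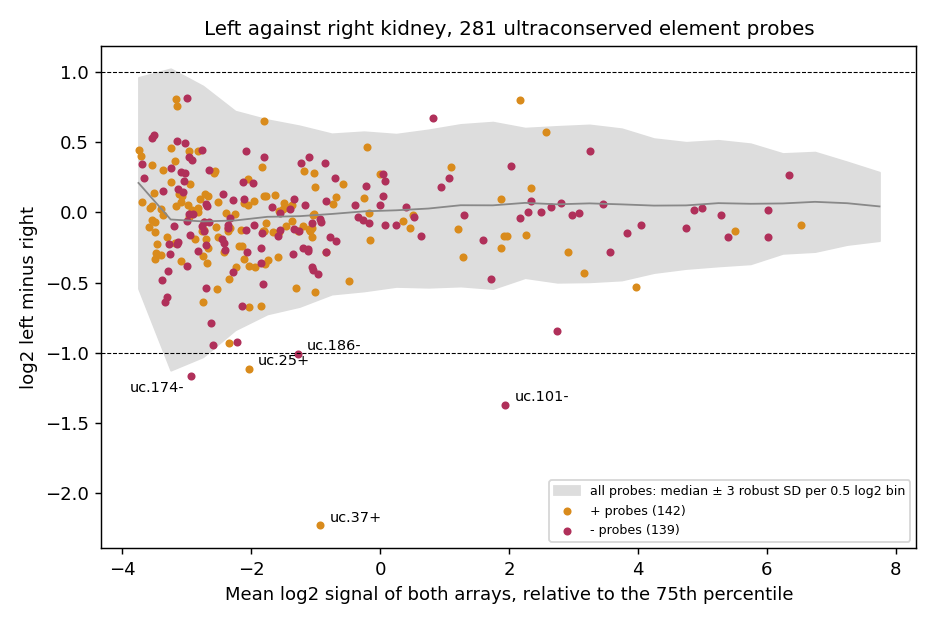
Log2 difference, left minus right (y), against mean log2 signal relative to the 75th percentile (x) for the 281 element probes above background on both arrays, coloured by strand; the grey band is the median ± 3 robust SDs of all probes in steps of 0.5 log2 and dashed lines mark 2-fold. The 5 probes past 2-fold are all higher on the right, and uc.37+ and uc.101- lie furthest outside the band.

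Differences between sides showed no common direction on the strands of an element. Among the 45 elements with both probes above background, left minus right had the same sign on both strands in 23. Across them Pearson's r of the + and - differences was -0.11 and Spearman's rho 0.06, a description over elements on the same 2 arrays.

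On 1 array only, 11 element probes were above background on the left and 61 on the right. Of all other probes 667 and 3677 were, which is 1.14% and 6.26%, beside 1.14% and 6.34% of the element probes. The limit for a call differed between arrays, as given above. A probe called on the right alone is set against the higher left limit (33.2 against 27.2), so it needs a higher signal for the same bound. A bound of 1.5-fold or more was reached by 7 of the left probes and 4 of the right ones, a count not made for other probes.

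The clearest of these was uc.437-, at 208 ± 22.0 in the left kidney against a bound from the right array, where it had no call, of at least 7.61-fold. The probe uc.429- was at least 2.92-fold, uc.274+ at least 2.79-fold, uc.108- at least 2.57-fold and uc.426- at least 2.04-fold higher on the left. The bounds of uc.107- and uc.403- were 1.73-fold and 1.63-fold. On the right uc.475- stood at 128 ± 14.0, with no call in the left kidney and a bound of at least 3.85-fold. It was followed by uc.36- (at least 3.73-fold), uc.12+ (at least 2.33-fold) and uc.73+ (at least 1.81-fold). The 18 nearest tested probes of uc.437- and uc.475- had median log2 differences of -0.02 and 0.03. Each value rests on 1 spot per array.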

How the data were processed

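Per the file headers, the authors read the images with Agilent Feature Extraction 11.0.1.1; the deposited intensity is background-subtracted and detrended within an array, with no scaling between arrays. The authors' deposited table for the series equals it in 62513 of 62513 rows (relative tolerance 1e-05), with medians of 58.6 (left) and 61.0 (right), linear and not centred. The grid names build mm9; no coordinates were used.

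Computed here: log2 signal minus each array's 75th percentile over non-control spots not named negative; spots of a probe averaged; a probe above background where at least 0.5 of its spots had the well-above-background flag, another 0 or 1 value deposited by the authors. Robust SDs are 1.4826 times the median absolute deviation over other probes within 0.25 log2. Shares have Clopper-Pearson 95% intervals. With 1 array per side no test was run, and array number limits precision. Named probes are the 15 brightest, 8 elements per strand by ratio and 8 by bound, probes past 2-fold with the next 5 per side, and 1-array probes with a bound of 1.5-fold. Members and lists were chosen with earlier results of these data known. The raw median spot and background intensities, as deposited, entered normexp (offset 50), since the mean spot signal was not used here. Scripts were tested on simulated data. Tools were R 4.3.3 with limma 3.58.1, and scipy 1.17.1 and pandas 2.3.3 under Python 3.11.15.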

Additional observations from a re-analysis of the deposited data

Results flagged for a closer look

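Among the 20 probes named as negatives, 2 gave signal in most of their 60 spots. For MM9NEGATIVE009 the left array called 55% of spots well above background and the right array 88.3%. For MM9NEGATIVE020 the shares were 61.7% (left) and 83.3% (right). They are given because they were called far more often than the other 18 negatives, none of which passed in more than 5% of its spots. Both are counted in the shares of negative spots set beside the element probes. With them left out of the limit set on negatives, chosen after seeing the data, 73 elements passed on both strands and 163 on 1 strand. With them kept the counts were 36 and 157.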

How the results depend on the processing

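Every alternative run for detection changed the limit. With the lenient flag for positive and significant signal, 529 (left), 610 (right) and 473 (both arrays) element probes passed, with 129 elements on both strands and 121 on 1 strand. At 4 times the dimmest call these were 126, 153, 124 and 7, with 103 elements on 1 strand. Above the 99th percentile of negatives 224 passed on the right. Without the 2 negatives that gave signal, 73 elements passed on both strands. With the 4-fold limit 2 elements had the + probe and 4 the - probe 2-fold higher, of 7 elements; with no background filter 113 and 126. Probes 2-fold higher on the right numbered 2 with normexp, 1 with the 4-fold limit, 87 with no filter, 16 at 1.5-fold, 1 at 3-fold and 9 at 3 robust SDs (this rule, and leaving out the 2 negatives, were chosen after seeing the data). On the left they numbered 46 with no filter, 6 at 1.5-fold and 3 at 3 robust SDs. The median difference was -0.010 under median scaling and turned to 0.14 with no filter, where the lowest signals were 6.58 (left) and 5.41 (right). Pearson's r was 0.991 with normexp, 0.992 with the 4-fold limit and 0.955 with no filter. Of the 15 probes named for their difference, all kept their direction under each alternative run, and 11 shrank by more than 1 robust SD with normexp, which adds an offset of 50. With the median of the 18 nearest probes subtracted, 4 moved by more than 1 robust SD. Under the 4-fold limit 4 of the 15 remained. These 15 were chosen for wide differences, so a small shift could not turn their direction. Depth here is signal over background: a probe under the dimmest call (33.2 left, 27.2 right) has only a bound on that array. No paired analysis was possible because each side has 1 array, and leaving out a sample leaves no comparison.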
